A study of Mus musculus with 13 samples.

Results

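The enzymes, carriers and control proteins of fatty acid oxidation were followed in the mouse heart through 31 genes. They were listed by symbol for their roles, with earlier results of these data known, and all 31 were found among the 33821 genes measured. Of these, 23 were listed as mitochondrial, 3 as peroxisomal (Acaa1a, Ehhadh and Hsd17b4) and 5 as described in both organelles (Acad11, Crat, Mlycd, Ech1 and Eci2). RNA was sequenced from 13 libraries of wild type mice of the FvB strain, untreated as far as the labels say. Ventricles gave 5 libraries, at embryonic day 17 (E17) and at postnatal days (PN) 1, 10, 28 and 90. Cardiomyocytes, the contracting muscle cells, gave 4 libraries: neonatal cells labelled PN1 to 2 and PN1, and cells at PN30 and PN67. Cardiac fibroblasts, which make the connective tissue, gave 4 libraries: neonatal cells titled PN1 to 3 and PN1 to 2, and cells at PN28 and PN60. In every case the atria had been taken off. Neonatal cardiomyocytes came from preplating, in which fibroblasts settle on a dish first, and the PN30 and PN67 cells from Langendorff perfusion, so stage and isolation cannot be told apart in cardiomyocytes. Fibroblasts were preplated at every stage. Ventricle RNA was depleted of ribosomal RNA before library preparation and cell libraries followed a TruSeq protocol, so ventricle and cell levels were not tested against each other.

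Long-chain fatty acids enter mitochondria as carnitine esters. Carnitine palmitoyltransferase 1, made as a liver type (Cpt1a) and a muscle type (Cpt1b), forms them at the outer membrane, and malonyl-CoA inhibits it. Inside, a cycle of dehydrogenation, hydration, a further dehydrogenation and thiolytic cleavage shortens the acyl chain, and the electrons pass to the respiratory chain. Peroxisomes run a related cycle on very long and branched chains. The heart is known to move from glucose and lactate to fatty acids as its main fuel after birth.

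The bases before the start sites of 4 members are shown because Hadha and Hadhb share one such region and because 3 others hold a hexamer, AGGTCA, that nuclear receptors of lipid metabolism are known to bind. Each line gives the 250 bases before the RefSeq start (build GRCm38.p6), 5′ to 3′ on the strand of the gene, with AGGTCA or its reverse complement in capitals.
Hadhb (chr5:30155003-30155252, forward strand): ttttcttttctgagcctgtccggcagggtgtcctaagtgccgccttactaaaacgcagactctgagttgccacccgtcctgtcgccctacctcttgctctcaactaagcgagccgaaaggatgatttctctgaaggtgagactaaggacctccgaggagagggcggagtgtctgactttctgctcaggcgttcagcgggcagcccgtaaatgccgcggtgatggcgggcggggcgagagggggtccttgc
Cpt1a (chr19:3323051-3323300, forward strand): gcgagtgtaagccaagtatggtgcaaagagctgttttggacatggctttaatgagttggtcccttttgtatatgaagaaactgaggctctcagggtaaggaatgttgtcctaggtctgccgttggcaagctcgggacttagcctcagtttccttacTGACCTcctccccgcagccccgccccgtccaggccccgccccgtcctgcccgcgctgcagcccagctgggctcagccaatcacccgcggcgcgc
Acadvl (chr11:70015429-70015678, reverse strand): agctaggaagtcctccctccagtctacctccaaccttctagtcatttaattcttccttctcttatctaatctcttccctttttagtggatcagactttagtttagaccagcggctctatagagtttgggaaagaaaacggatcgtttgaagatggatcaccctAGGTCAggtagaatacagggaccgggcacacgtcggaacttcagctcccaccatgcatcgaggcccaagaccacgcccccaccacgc
Echs1 (chr7:140116422-140116671, reverse strand): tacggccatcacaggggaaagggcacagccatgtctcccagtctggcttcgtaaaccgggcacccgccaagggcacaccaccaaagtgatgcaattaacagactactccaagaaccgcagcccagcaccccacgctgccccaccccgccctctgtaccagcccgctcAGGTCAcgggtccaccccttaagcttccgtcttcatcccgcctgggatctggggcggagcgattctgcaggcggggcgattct
The starts of Hadha and Hadhb, the alpha and beta subunits of the mitochondrial trifunctional protein, lay 273 bases apart on opposite strands of chromosome 5, and the upstream 250 bases of each shared 228 bases. The capitals begin 94 bases before the start of Cpt1a (reverse complement), 87 before that of Acadvl and 83 before that of Echs1. Windows from 250 bases before to 50 after the start were available for 24 of the 31 members. On either strand, 5 of these 24 windows held AGGTCA (Cpt1a, Acadvl, Acadm, Echs1 and Acacb), against 16.3% of all 32851 windows. None of the 24 held TNAAGGTCA, the extended element of estrogen-related receptors, which includes the hexamer (1.28% of all windows), or a pair of AGGTCA hexamers in the same direction 1 base apart (0.0396%). These are matches of letters and were not tied to binding. The hexamer was held both by Acadvl and Echs1, which rose in cardiomyocytes, and by Cpt1a, which did not pass the test of stage there.

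Values are FPKM, a fragment density corrected for transcript length and library size, summed over the transcripts of a gene and scaled within the 8 cell libraries and within the 5 ventricle libraries. Fragment totals were not used here, and the authors' coverage divided by FPKM served as a guide to depth: it was 30.4 to 32.8 in fibroblasts, 21.8 to 25.1 in cardiomyocytes and 19.5 to 25.0 for the ventricle libraries. The labels were checked with marker genes. Of the cardiomyocyte markers, 13 of 13 measured were higher in that cell type, as were 9 of 9 fibroblast markers in theirs. Cardiomyocyte markers stood in the neonatal fibroblast libraries at a median of 10.3% and 8.48% of their neonatal cardiomyocyte level, and in the PN28 and PN60 fibroblasts at 0.0645% and 0.0623% of the later cardiomyocyte level. Fibroblast markers stood in cardiomyocytes at a median of 7.54% (neonatal) and 12.6% (later) of their fibroblast level. The neonatal libraries are the only ones with a replicate, and nothing says that they came from separate cultures. A p-value between cell classes reflects the scatter within the neonatal and the later pairs of libraries. That scatter may be technical in the neonatal pairs, and in the later pairs it includes the difference in age. A p-value of a ventricle slope reflects the scatter of the 5 single libraries about a line. Fewer cells of a type and less RNA per cell cannot be told apart in such bulk libraries.

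Together the 31 genes made up a larger part of the total FPKM in later than in neonatal cardiomyocytes. In later fibroblasts their part was smaller than in neonatal ones. The total was taken over the genes kept in processing, without mitochondrially encoded genes and without transcripts that matched no gene name. The summed FPKM of the 31 genes was 0.773% and 0.717% of it in the neonatal cardiomyocytes, 2.14% at PN30 and 2.46% at PN67. In fibroblasts it was 0.149% and 0.147% in the neonatal libraries, 0.0542% at PN28 and 0.0679% at PN60. In ventricles it went from 0.574% at E17 to 1.31% at PN1, 1.62% at PN10, 1.73% at PN28 and 1.86% at PN90. The 5 most abundant members held between 41.8% and 55.0% of this sum in every library. The 23 mitochondrial genes summed to 80.8 and 86.5 times the 3 peroxisomal genes in neonatal cardiomyocytes and to 91.8 and 98.2 times at PN30 and PN67. This ratio was 33.6 and 27.4 in neonatal fibroblasts and 16.9 and 16.6 in later ones, and in ventricles it went from 45.6 at E17 to 81.6 at PN1 and 104.5 at PN90. Every fibroblast library had a lower ratio than any cardiomyocyte or ventricle library.

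**Figure D1:**
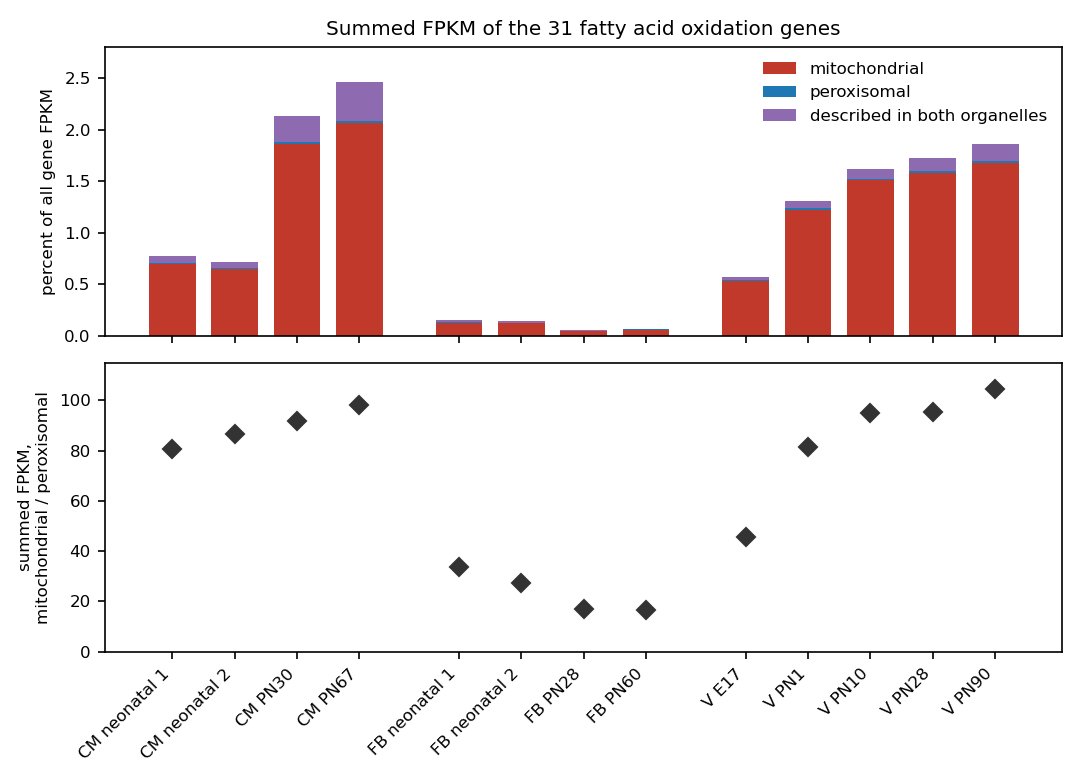
Summed FPKM of the 31 genes as a percent of the total FPKM of the genes kept, without mitochondrially encoded genes (top, stacked by location). The bottom panel gives the ratio of the summed mitochondrial to the summed peroxisomal genes. Both are shown for each of the 13 libraries (CM, cardiomyocytes, FB, fibroblasts, V, ventricles). The later cardiomyocytes reach 2.14% and 2.46%, and the later fibroblasts have the lowest ratios, 16.9 and 16.6.

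In cardiomyocytes, 29 of the 31 genes rose from the neonatal to the later cells, none fell, and Cpt1a and Acot2 did not pass the test (limma on log2(FPKM + 1), Benjamini-Hochberg adjusted p below 0.05 over 12076 genes). Across all genes tested, 37.2% rose and 29.8% fell. The median log2 change of the members was 1.94, against 0.10 over all genes. Acad10 and Ehhadh passed the filter on low values only through the later cardiomyocytes, where they were high, and of the other 29 members 27 rose. The split of all genes moved with the scaling, from 4494 up and 3594 down to 3363 up and 4867 down on the FPKM as deposited, where the median over all genes was -0.19. The count of members that rose stayed between 28 and 29 when any single library was left out, 28 being where Acad10 dropped below the filter. Cardiomyocyte markers rose alongside (13 of 13, median 2.14), as did 6 of 10 macrophage and leukocyte markers (1 fell, median 1.15). Endothelial markers fell (9 of 10, median -0.95), and so did 3 of 3 tested erythroid markers (median -4.26). The summed FPKM of the endothelial list was 1380 and 1611 in the neonatal cells, then 525 and 574, that of the erythroid list 15381 and 20445, then 1103 and 712, and that of the macrophage and leukocyte list 88.5 and 113.3, then 315.7 and 334.1. Adipocyte and brown fat markers, from tissue rich in these enzymes, summed to 9.87 and 9.73 FPKM, then 16.8 and 20.0, with 5, 5, 2 and 4 of the 7 below 0.1 FPKM. The part of these shifts in the members' changes was not tested.

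**Figure D2:**
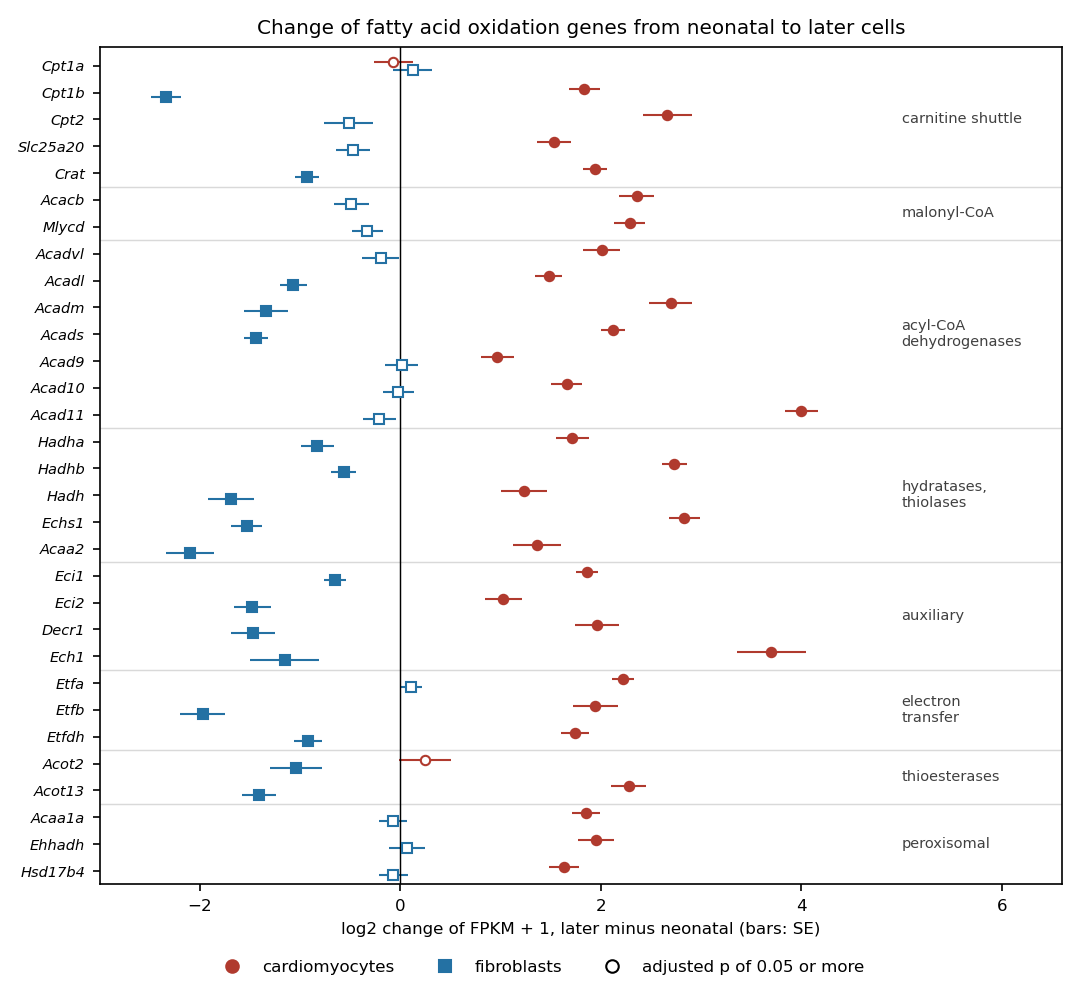
Log2 change of each member from neonatal to later cells (x axis, FPKM + 1 scale, bars give the standard error of the fit) in cardiomyocytes (circles) and fibroblasts (squares), grouped by role, with open symbols where the adjusted p was 0.05 or more. All cardiomyocyte points except Cpt1a and Acot2 are filled and right of 0, and the 3 peroxisomal genes sit near 0 in fibroblasts.

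Of the carnitine shuttle, Cpt1b, Cpt2, Slc25a20 and Crat rose. Cpt1b (ENSMUSG00000078937, chromosome 15, 89246836 to 89256294 in mm9, reverse strand), the muscle form of the entry enzyme, was measured at 90.7 and 78.2 FPKM in the neonatal cardiomyocytes, 272 at PN30 and 337 at PN67. The groups did not overlap, and the log2 change was 1.83 ± 0.15 (SE, limma adjusted p = 3.63e-05). Its annotated transcripts overlap Gm44502 on the same strand, so the 2 cannot be fully separated. Cpt2, which returns the acyl group to CoA inside the inner membrane, had the largest change of the shuttle, from 22.1 and 21.4 to 129 and 159 FPKM (2.66 ± 0.25, limma adjusted p = 5.88e-05). Slc25a20, the carnitine-acylcarnitine translocase, changed by 1.53 ± 0.17 and Crat, which moves acetyl groups to carnitine, by 1.94 ± 0.12. Cpt1a (ENSMUSG00000024900, chromosome 19, 3323301 to 3385732, forward strand) did not pass, with 14.1 and 13 FPKM in the neonatal cells, 10.7 at PN30 and 15.4 at PN67. The later pair enclosed the neonatal pair, and the log2 change was -0.07 ± 0.19 (limma adjusted p = 0.754). On a scale with mitochondrially encoded genes removed and equal sums it was called lower (-0.51, limma adjusted p = 0.0388), and the other scales did not call it.

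Both malonyl-CoA genes rose. Acacb, the acetyl-CoA carboxylase that makes malonyl-CoA at the mitochondrial surface, was at 6.6 and 5.59 FPKM in the neonatal cardiomyocytes, 32.9 at PN30 and 37.9 at PN67 (log2 change 2.36 ± 0.17, SE). Mlycd, malonyl-CoA decarboxylase, which removes it, was at 8.34 and 8.13, then 40.1 and 48.5 FPKM (2.29 ± 0.16). The change of the enzyme that makes the inhibitor and that of the enzyme that degrades it differed by less than the standard error of either.

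All 7 acyl-CoA dehydrogenases, which carry out the step that opens each cycle, rose. Acadm, for medium chains, reached the highest level, from 147 and 143 FPKM to 907 and 983 (log2 change 2.70 ± 0.22, SE, limma adjusted p = 3.26e-05). Acad11 (chromosome 9, 103965707 to 104029793 in mm9), an acyl-CoA dehydrogenase family member found in both organelles, had the largest change of all 31 members. It was at 3.09 and 2.72 FPKM in the neonatal cells, 53.2 at PN30 and 70.6 at PN67 (4.0 ± 0.17, limma adjusted p = 3.83e-06). The later mean was 21.3 times the neonatal mean. Acadvl, for very long chains, changed by 2.01 ± 0.19, Acadl, for long chains, by 1.48 ± 0.13, Acads, for short chains, by 2.12 ± 0.12, and Acad10 by 1.66 ± 0.15. Acad10 passed the filter on low values only through the later cardiomyocytes, which favoured its rise. Acad9, also known as an assembly factor of complex I, had the smallest change of the group at 0.97 ± 0.16, from 2.99 and 2.48 to 7.18 and 5.47 FPKM.

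The enzymes that complete the mitochondrial cycle rose in 5 of 5 cases. Hadhb, the thiolase subunit of the trifunctional protein, was the most abundant member in later cardiomyocytes, at 233 and 234 FPKM in the neonatal cells, 1446 at PN30 and 1675 at PN67 (log2 change 2.73 ± 0.12, SE, limma adjusted p = 4.67e-06). Hadha, its partner across the shared upstream region, was at 221 and 201, then 607 and 793 FPKM (1.72 ± 0.17). The 2 subunits were at like levels in the neonatal cells and Hadhb was the higher in both later libraries. In every ventricle library Hadha was the higher, at 971 against 763 FPKM at PN90. Hadha-201, annotated as a processed transcript, held 69.5% of the Hadha FPKM in PN67 cardiomyocytes and 92.2% in PN90 ventricle. Echs1, the short-chain enoyl-CoA hydratase, had the largest change of the group, from 65.2 and 56.6 to 447 and 429 FPKM (2.83 ± 0.15). Hadh, the hydroxyacyl-CoA dehydrogenase for shorter chains, changed by 1.23 ± 0.23 and the thiolase Acaa2 by 1.36 ± 0.24.

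The auxiliary enzymes that handle double bonds rose in 4 of 4 cases. Ech1, a dienoyl-CoA isomerase (chromosome 7, 29610236 to 29617266 in mm9), was at 78.5 and 76.1 FPKM in the neonatal cardiomyocytes, 797 at PN30 and 1298 at PN67, and its change of 3.70 ± 0.34 (SE, limma adjusted p = 5.94e-05) was second to that of Acad11. Its PN67 level was 1.63 times its PN30 level. Decr1, the dienoyl-CoA reductase, changed by 1.96 ± 0.22, and the enoyl-CoA isomerases Eci1 and Eci2 by 1.86 ± 0.11 and 1.03 ± 0.18. All 3 genes of electron transfer rose. Etfa and Etfb, the subunits of the electron transfer flavoprotein, went from 149 and 141 to 655 and 706 FPKM (2.22 ± 0.11) and from 227 and 214 to 856 and 847 (1.94 ± 0.23). Etfdh, which hands the electrons to ubiquinone, changed by 1.74 ± 0.14. Of the thioesterases, which free fatty acids from CoA, Acot13 rose from 93.4 and 90.6 to 452 and 447 FPKM (2.28 ± 0.17). Acot2 was at 34.1 and 35.5 FPKM in the neonatal cells, 31.3 at PN30 and 54.7 at PN67, and its change of 0.24 ± 0.26 did not pass (limma adjusted p = 0.434). The PN30 value lay below both neonatal ones and the PN67 value above them, and the sign of the change turned without the PN67 library (-0.12) and on other scales, while without PN30 Acot2 was called higher (0.67). Acot2 has close relatives in its gene cluster, and its value is uncertain for that reason.

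The 3 peroxisomal enzymes rose as well. Hsd17b4, the multifunctional enzyme for branched and very long chains, was at 19.9 and 17.5 FPKM in the neonatal cardiomyocytes, 58.0 at PN30 and 62.0 at PN67 (log2 change 1.63 ± 0.15, SE). Acaa1a, a peroxisomal thiolase with a near copy, Acaa1b, was at 10.5 and 9.27, then 39.4 and 37.2 FPKM (1.85 ± 0.14). Ehhadh, the other multifunctional enzyme, was low throughout, at 0.972 and 0.75, then 5.01 and 7.56 FPKM (1.95 ± 0.18). It passed the filter on low values only through the later cardiomyocytes, which favoured its rise. In cardiomyocytes the peroxisomal median log2 change, 1.85, was close to that of the 23 mitochondrial genes, 1.86, and the 5 genes described in both organelles had a median of 2.29.

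Between the later cardiomyocyte libraries, 26 of 31 members were higher at PN67 than at PN30, by a median of 1.15 times. Acot2 (1.75 times) and Ech1 (1.63 times) had the highest ratios and Acad9 (0.762 times) the lowest. Each age had 1 library, so these ratios have no replicate check. The share of all genes that were higher at PN67 was not computed, so the count cannot be set against it.

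In fibroblasts the members that changed went the other way, and the counts differed by location, a difference that was not tested. None of the 31 rose, 18 fell and 13 did not pass, where 19.7% of all genes tested rose and 20.8% fell. The median log2 change of the members was -0.83, against -0.02 over all genes (-0.29 on the FPKM as deposited, where 1474 of all genes rose and 4656 fell). Of the 23 mitochondrial genes 15 fell (median -0.92), of the 5 described in both organelles 3 fell (median -0.93), and of the 3 peroxisomal genes none did (median -0.07). Leaving out 1 library gave between 15 and 20 members that fell. The calls of Ech1 and Acot2 were lost without PN28 or without either neonatal fibroblast library, that of Ech1 also without either neonatal cardiomyocyte library, and that of Hadhb without either neonatal fibroblast library. With no filter on low values Ech1 (limma adjusted p = 0.0911) and Acot2 (limma adjusted p = 0.0510) did not pass, and with a pseudocount of 5 Acot2 did not (limma adjusted p = 0.107).

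Cpt1b had the largest fall, from 9.56 and 9.0 FPKM in the neonatal fibroblasts to 0.916 at PN28 and 1.16 at PN60 (log2 change -2.34 ± 0.15, SE, limma adjusted p = 4.74e-05). Acaa2 went from 30.6 and 28.7 to 4.38 and 8.50 FPKM (-2.10 ± 0.24) and Etfb from 41.3 and 44.3 to 7.48 and 13.7 (-1.97 ± 0.23). The neonatal and later values of these 3 genes did not overlap. The group that completes the mitochondrial cycle fell in 5 of 5 cases, with Hadh at -1.69 ± 0.23, Echs1 at -1.53 ± 0.15, Hadha at -0.83 ± 0.17 and Hadhb at -0.57 ± 0.12. The auxiliary enzymes fell in 4 of 4 cases, between -1.48 for Eci2 and -0.65 for Eci1. Acadl, Acadm and Acads fell (-1.07, -1.34 and -1.44), as did Crat (-0.93), Etfdh (-0.92), Acot2 (-1.04) and Acot13 (-1.41).

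The other 8 mitochondrial members did not pass. Etfa was at 28.4 and 26.9 FPKM in the neonatal fibroblasts, 28.3 at PN28 and 31.6 at PN60 (log2 change 0.11 ± 0.11, SE, limma adjusted p = 0.475), while its partner subunit Etfb was among the largest falls. Acadvl was at 34.7 and 31, then 23.0 and 35.2 FPKM (-0.20 ± 0.19). Cpt1a was at 14.4 and 12.4, then 16.3 and 13.1 FPKM (0.12 ± 0.19), and its ranges overlapped. Acad9, Acad10, Cpt2, Slc25a20 and Acacb had log2 changes between -0.52 and 0.01, and of the genes described in both organelles Acad11 (-0.21) and Mlycd (-0.33) did not pass. On the FPKM as deposited Cpt2, Slc25a20, Acacb and Mlycd were called lower. With a pseudocount of 0.1, Slc25a20 (-0.53, limma adjusted p = 0.0419) and Acacb (-1.13, limma adjusted p = 0.0267) were called lower too. Single libraries also moved some of these changes. Cpt2 was -0.89 without PN28 and Acacb -0.68 without PN60, while Acadvl was -0.48 without PN60 and 0.12 without PN28. Acacb was at 1.06 and 0.949 FPKM in the neonatal fibroblasts, then 0.248 and 0.633. Acad9 and Acad10 also lay near or below 1 FPKM in fibroblasts, where log2(FPKM + 1) understates changes. Etfa and Acadvl were 2 of the 5 most abundant members at both later ages.

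None of the peroxisomal genes passed in fibroblasts. Hsd17b4 was at 6.76 and 7.94 FPKM in the neonatal cells, 6.27 at PN28 and 7.67 at PN60 (log2 change -0.07 ± 0.15, SE, limma adjusted p = 0.739). Acaa1a was at 5.91 and 6.52, then 5.44 and 6.27 FPKM (-0.08 ± 0.14, limma adjusted p = 0.688), and Ehhadh at 0.249 and 0.320, then 0.311 and 0.377 FPKM (0.07 ± 0.18, limma adjusted p = 0.795). The neonatal and later values of Hsd17b4 and Acaa1a overlapped, and Ehhadh stood below 1 FPKM in all 4 libraries.

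Cardiomyocyte markers fell in fibroblasts too, in 13 of 13 cases with a median of -4.13, 6 of 10 endothelial markers fell (median -0.73) and 9 of 10 macrophage and leukocyte markers rose (median 1.93). The summed FPKM of the cardiomyocyte list was 1370 and 1170 in the neonatal fibroblasts, then 30.3 and 38.3, that of the endothelial list 663 and 787, then 499 and 507, and that of the macrophage and leukocyte list 129 and 249, then 1201 and 964. The amount that each of the 18 members fell, as a percent of its neonatal cardiomyocyte level, ran from 5.23% (Eci1) to 22.4% (Eci2) with a median of 9.48%. The same quantity for the cardiomyocyte markers ran from 6.33% to 10.2% with a median of 8.97%. Of the 18 members, 9 lay within the range of the markers, 7 above it (Acads, Hadh, Echs1, Ech1, Eci2, Decr1 and Etfb) and 2 below it (Hadhb and Eci1). What part cardiomyocyte RNA in the neonatal fibroblast libraries had in the falls was not tested further, and that of the endothelial and macrophage shifts was not tested.

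The signed log2 change with stage was higher in cardiomyocytes than in fibroblasts for 30 of 31 members by the interaction term of the fit. Of all genes tested, 32.2% passed in that direction. Without Acad10 and Ehhadh, which passed the filter on low values only through the later cardiomyocytes, the count was 28 of 29. The term is signed, so a fall in fibroblasts adds to it. For some members, Cpt1b and Acaa2 among them, the fall in fibroblasts was the larger change in size. Cpt1a did not pass (-0.20 ± 0.28, SE, limma adjusted p = 0.562). The call of Acot2 (1.29 ± 0.37, limma adjusted p = 0.0193) was lost without the first neonatal fibroblast library or either neonatal cardiomyocyte library, with a pseudocount of 5 (limma adjusted p = 0.0747) and with no filter on low values (limma adjusted p = 0.0572). The largest interactions were those of Ech1 (4.85 ± 0.48), Echs1 (4.36 ± 0.22), Acad11 (4.21 ± 0.23), Cpt1b (4.17 ± 0.22) and Acadm (4.04 ± 0.31). The median was 2.85 for the mitochondrial genes and 1.88 for the peroxisomal ones.

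Averaged over the stages, 30 of 31 members were higher in cardiomyocytes than in fibroblasts, against 37.1% of all genes tested, and 28 of 29 without Acad10 and Ehhadh. Cpt1a did not differ beyond the error (-0.08 ± 0.14, SE, limma adjusted p = 0.622). In the neonatal cells alone 29 were higher (21.5% of all genes), Cpt1a and Acad10 not passing, and in the later cells 30 (38.4% of all genes), all but Cpt1a. Acad10 and Ehhadh, counted in these 30, passed the filter only through the later cardiomyocytes, which favoured their call there. The median log2 difference was 3.88 for the mitochondrial genes, 3.39 for those described in both organelles and 1.56 for the peroxisomal genes. The highest differences were those of Cpt1b (5.14 ± 0.11), Acadm (4.95 ± 0.15) and Acaa2 (4.71 ± 0.17).

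Put as a percent, the neonatal fibroblast mean was a median of 18.9% of the neonatal cardiomyocyte mean over the 31 members, from 11% for Cpt1b to 98.6% for Cpt1a. The 13 cardiomyocyte markers lay between 6.67% and 10.5%, and all 31 members lay above the highest of them. In the later cells the members had a median of 2.27%, from 0.340% for Cpt1b to 113% for Cpt1a, and all 31 again lay above the highest marker, at 0.182%. The peroxisomal genes stood at 62.8% (Acaa1a), 39.3% (Hsd17b4) and 33.1% (Ehhadh) in the neonatal cells, and at 15.3%, 11.6% and 5.47% in the later ones. Their medians, 39.3% and 11.6%, lay above the mitochondrial medians of 17.5% and 2.27% and above the 25.4% and 1.68% of the genes described in both organelles. Single genes of the other locations overlapped with them: Acad9 stood at 33.5% and 14.8%, Acad10 at 38.3% and 5.0%, and the genes described in both organelles reached 33.8% and 5.54%.

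**Figure D3:**
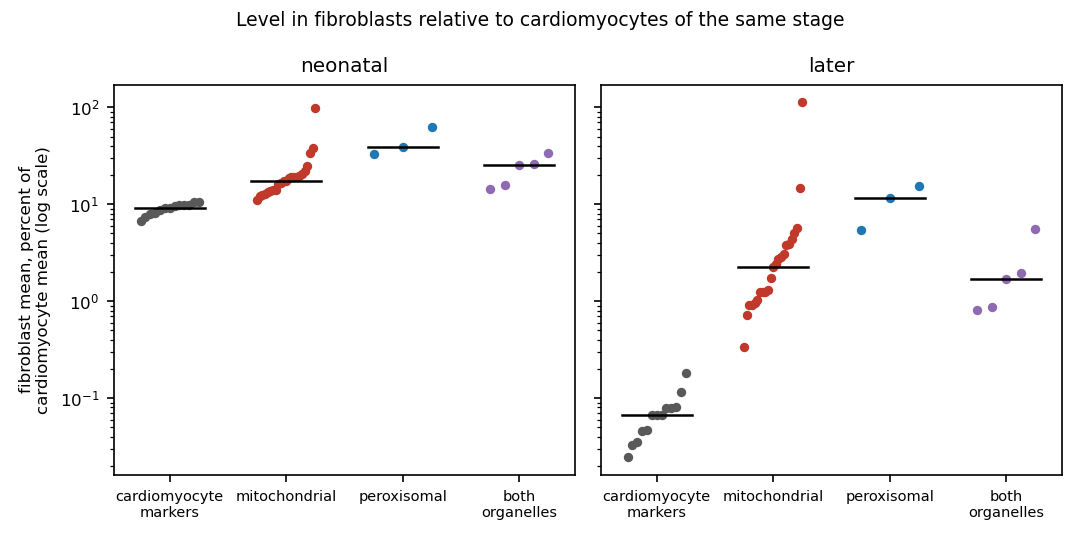
Fibroblast mean FPKM as a percent of the cardiomyocyte mean (log axis) in neonatal (left) and later (right) cells for 13 cardiomyocyte markers, 23 mitochondrial, 3 peroxisomal and 5 members described in both organelles, with 1 point for each gene and a line at the median. All members lie above the markers, whose highest values are 10.5% and 0.182%, and Cpt1a is the top point of both panels.

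The balance of the entry enzymes differed between cell types and between stages. Cpt1b was 6.42 and 6.02 times Cpt1a (FPKM, per length) in the neonatal cardiomyocytes, 25.5 times at PN30 and 21.9 times at PN67. In fibroblasts Cpt1a was the more abundant, at 1.51 and 1.37 times Cpt1b in the neonatal libraries, 17.8 times at PN28 and 11.3 times at PN60. All 4 cardiomyocyte libraries were on one side of equality and all 4 fibroblast libraries on the other. The log2 ratio of Cpt1a to Cpt1b (FPKM + 1) was lower in cardiomyocytes by a mean difference of -5.22 (two-sided exact permutation test over 4 and 4 libraries, p = 0.0286, the smallest that the 70 arrangements allow). Over the other pseudocounts, scales and libraries left out, the difference ran from -5.70 to -4.22. In ventricles Cpt1b was 10.4, 9.62 and 10.8 times Cpt1a at E17, PN1 and PN10, then 27.2 times at PN28 and 36.9 times at PN90. In the cells the ratio moved with Cpt1b, while Cpt1a lay between 10.7 and 16.3 FPKM in all 8 libraries. The fall of Cpt1b in fibroblasts was 9.76% of its neonatal cardiomyocyte level, where the falls of the cardiomyocyte markers ran from 6.33% to 10.2%. What part cardiomyocyte RNA in the neonatal fibroblast libraries had in the fibroblast ratios was not tested. In ventricles Cpt1a itself was at 7.76 FPKM at E17, 17.5 at PN1, 16.6 at PN10, 7.11 at PN28 and 6.62 at PN90, against 80.8, 168, 179, 194 and 244 for Cpt1b.

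**Figure D4:**
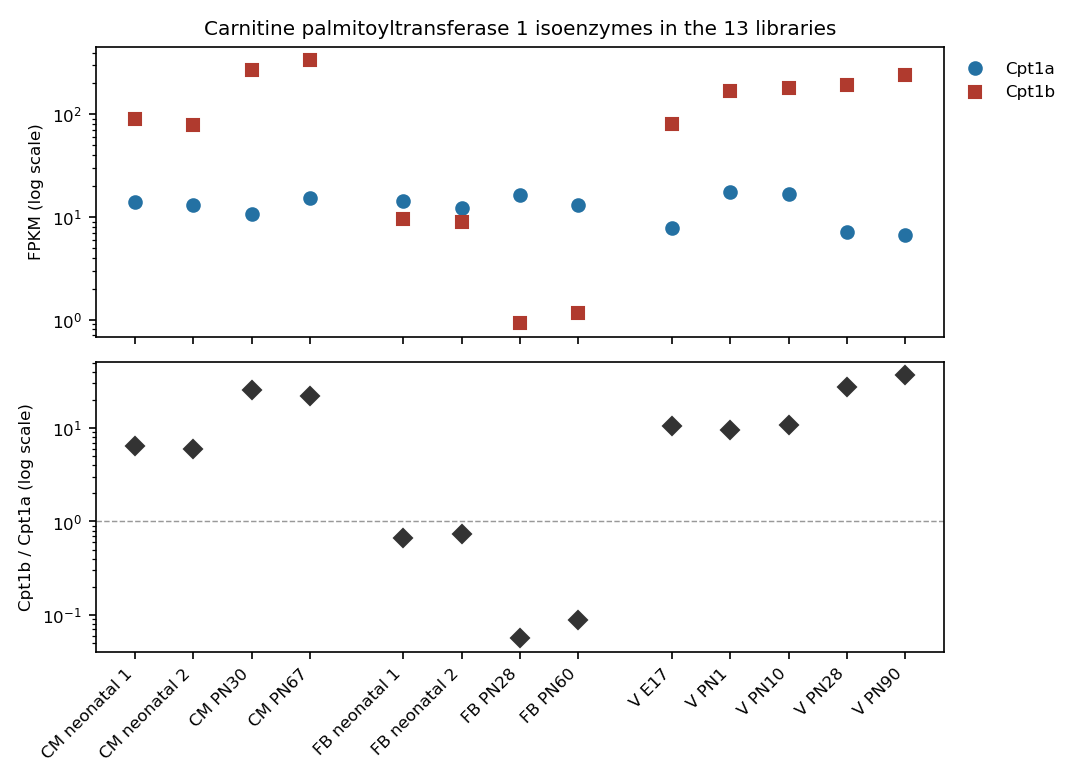
FPKM of Cpt1a and Cpt1b (top) and their ratio (bottom), both on log axes, in each of the 13 libraries (CM, cardiomyocytes; FB, fibroblasts; V, ventricles), with a dashed line at equality. Cpt1a stays between 10.7 and 16.3 FPKM in the cells, and the ratio is highest in PN90 ventricle, 36.9.

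Along the 5 ventricle stages, 21 of the 30 members tested rose and none fell (limma slope on stage order), against 20.4% of all genes that rose and 14.6% that fell. Acad10 was below the filter, at 0.35 to 1.17 FPKM. Each stage had 1 library and the count hung on single libraries and on the scale. It was 5 without E17 and 10 without PN28, 10 on the FPKM as deposited, 13 with mitochondrially encoded genes removed, 10 with no filter, and 7 for PN28 and PN90 against E17 and PN1. Ech1, Acad11, Echs1 and Acot13 rose under every alternative tried. Ech1 was at 32.8, 89.1, 174, 361 and 591 FPKM over the stages (slope 1.03 ± 0.07 per stage on the log2 scale, SE, limma adjusted p = 0.00416), Acad11 at 2.77, 5.15, 10.1, 32.5 and 39.6 (0.93 ± 0.08, limma adjusted p = 0.00416). Both went up at every stage. Echs1 was at 65.3, 79.8, 87.9, 187 and 251 FPKM, and Acot13 at 193, 316, 429, 727 and 788.

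The step from E17 to PN1 stood out from the later ones. All 30 tested members were higher at PN1 and 18 of them at least 2-fold (log2(FPKM + 1)), a size that 2.35% of all genes reached. The share of all genes that were higher by any amount was not computed, and each stage had 1 library. The median log2 step was 1.12 for the members and 0.06 for all genes. The median step of the members was 0.06 from PN1 to PN10, 0.33 from PN10 to PN28 and 0.09 from PN28 to PN90. Over the step from E17 to PN1 the summed FPKM of the erythroid markers went from 4798 to 182, and it lay between 182 and 234 afterwards. The adipocyte and brown fat markers went from 5.1 to 21 FPKM in the same step and the cardiomyocyte markers from 14703 to 19798. The part of these shifts in the step was not tested. From PN1 to PN90, 7 members were at least 2-fold higher (9.88% of all genes) and 1, Cpt1a, at least 2-fold lower (7.36%). Decr1 had the highest ratio of PN1 to E17, 5.0 times, followed by Acadvl (4.46) and Acot2 (4.23). From E17 to PN90, Acadm was at 275, 685, 867, 1551 and 1776 FPKM, and Hadhb at 95.1, 303, 455, 565 and 763. Cpt2 was at 24.2, 78.2, 109, 156 and 157 FPKM, Etfa at 73.1, 141, 220, 276 and 272, and Etfb at 310, 587, 563, 939 and 928. These 5 genes were all lowest at E17. Acacb was at 3.40, 7.35, 9.61, 12.6 and 12.9 FPKM and Mlycd at 1.91, 7.54, 9.99, 11.3 and 10.6.

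Other members peaked early. Acot2 was at 17.9 FPKM at E17, 75.7 at PN1, 64.9 at PN10, 39.9 at PN28 and 52.5 at PN90, and like Cpt1a was highest at PN1. Acaa2 held a plateau from PN1, at 225, 698, 687, 668 and 686 FPKM, and its slope did not pass (limma adjusted p = 0.139). Without E17 the slope of Cpt1a was -0.50 and was called lower. Acad9 lay between 2.16 and 2.65 FPKM at all stages. The peroxisomal genes had ratios of PN1 to E17 below the median of the members. Acaa1a was at 3.20, 3.68, 3.5, 5.61 and 4.69 FPKM, Ehhadh at 1.67, 3.21, 3.39, 5.2 and 4.37, and Hsd17b4 at 40.5, 59.6, 56.6, 73.1 and 77.5. Their ratios were 1.15, 1.92 and 1.47 times, where the median of all 31 members was 2.25 times. Some mitochondrial members had ratios as low, among them Acad9 (1.13 times), Echs1 (1.22 times) and Acot13 (1.64 times). Cardiomyocyte markers rose along the stages in 6 of 11 cases (median slope 0.34) and macrophage and leukocyte markers in 8 of 8 (median 0.45). Their part in the slopes of the members was not tested.

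**Figure D5:**
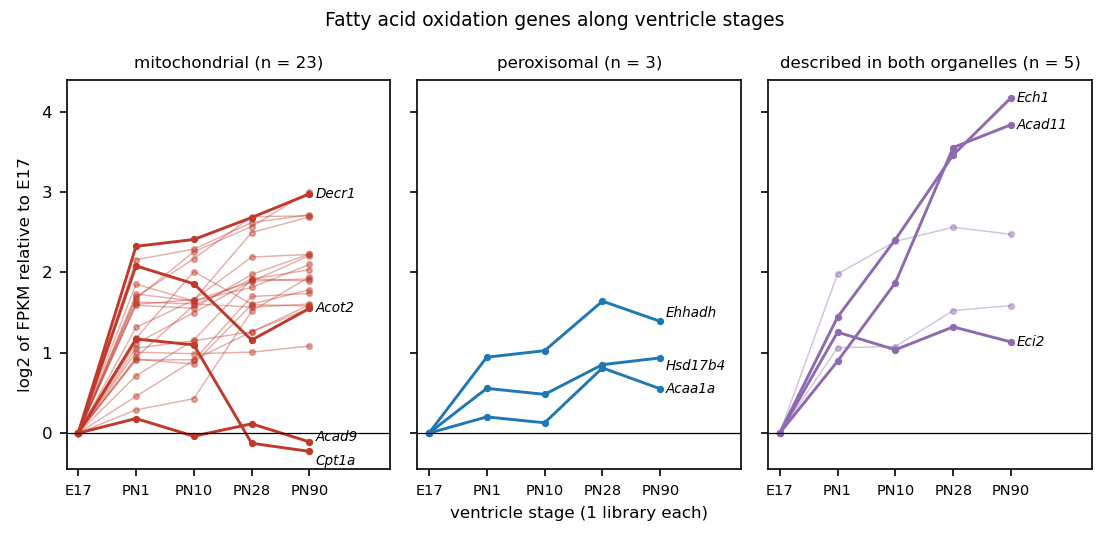
Log2 of FPKM relative to E17 at each ventricle stage (1 library each) for the members listed as mitochondrial (left), peroxisomal (middle) and described in both organelles (right), with named genes drawn bold. All members are above their E17 level at PN1, Ech1 and Acad11 climb to PN90, and Cpt1a and Acad9 end slightly below their E17 level.

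Genes around the pathway were counted from fixed lists of pathway members. Of all genes tested, 37.2% rose and 29.8% fell in cardiomyocytes, and 19.7% rose and 20.8% fell in fibroblasts. Apart from 3 rises among 8 carnitine and malonyl-CoA genes, the fibroblast counts of these lists lay near or below those shares. Of 13 tested further genes of peroxisomal oxidation and transport, 13 rose in cardiomyocytes (median log2 change 1.43), led by Phyh, the phytanoyl-CoA hydroxylase (2.86 ± 0.19, SE). In fibroblasts 1 rose, 3 fell and 9 did not pass, and Phyh had the largest change (-1.09 ± 0.19). Of 15 peroxisome biogenesis genes, 14 rose in cardiomyocytes (median 1.30), with Pex11a, which promotes peroxisome division, at 2.41 ± 0.20. In fibroblasts 2 rose, 1 fell and 12 did not pass, Pex16 having the largest change (1.13 ± 0.16). Of 8 other carnitine and malonyl-CoA genes, 4 rose and 3 fell in cardiomyocytes, the carrier Slc25a29 having the largest change (3.05 ± 0.15). In fibroblasts 3 rose and none fell, with the acyl-CoA synthetase Acsl4 at 1.23 ± 0.22. Pex11a, Slc25a29 and Acsl6 passed the filter on low values only through the later cardiomyocytes, where they were high. The filter thus favoured their rises there.

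Of 5 ketone body enzymes, 4 rose and 1 fell in cardiomyocytes, and in fibroblasts 1 fell and none rose. Bdh1, the hydroxybutyrate dehydrogenase that opens ketone body use, was at 0.770 and 0.450 FPKM in the neonatal cardiomyocytes, 19.7 at PN30 and 118 at PN67 (log2 change 4.96 ± 0.67, SE), with PN67 well above PN30. Bdh1 passed the filter on low values only through the later cardiomyocytes, which favoured its rise there.

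Of 11 transcriptional regulators of the pathway, 8 rose and 1 fell in cardiomyocytes, and 1 rose and 1 fell in fibroblasts. Rxrg, a retinoid X receptor, had the largest change in cardiomyocytes (4.99 ± 0.12, SE) and Ppard, a fatty acid receptor, in fibroblasts (1.33 ± 0.17). Rxrg and Esrrb passed the filter on low values only through the later cardiomyocytes, which favoured their rises there. Ppara, the fatty acid receptor known to drive many of these enzymes, was at 2.60 and 1.97 FPKM in the neonatal cardiomyocytes and 16.4 at both PN30 and PN67. In fibroblasts all 4 of its values were below 1 FPKM. In ventricles Ppara was at 5.12, 6.68, 6.44, 13.1 and 15.4 FPKM from E17 to PN90.

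Isoform shares of some members differed between the ventricle and the cell libraries, which bears on sums over transcripts. Library preparation cannot be told apart there from whole tissue against isolated cells. Cpt2-201 held between 35.0% and 43.4% of the Cpt2 FPKM in ventricles and between 81.1% and 95.5% in the cell libraries. Etfdh-202 held between 40.1% and 47.8% in ventricles and between 1.23% and 7.97% in cells. The coding transcript Cpt1b-201 held over 91.0% in the cardiomyocytes and between 60.4% and 63.0% in the later fibroblasts, where Cpt1b was near 1 FPKM. Acad11, Acadl, Hadhb and Hsd17b4 each overlap an annotated transcript on the same strand (Gm28305, Gm15793, Mir1960 and Cd63-ps). Transcripts of Acadvl, Acad11, Hadha, Acaa1a and Crat overlap a neighbour on the opposite strand (Dvl2, Ackr4, Garem2, Myd88 and Dolpp1). Eci2, Ehhadh and Acacb overlap Gm16984, Gm24898 and Gm13784 there, and Acadvl and Crat also Mir324 and Gm16323. The sources used here do not say whether counting used the strand, so reads of these pairs may be shared.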

How the data were processed

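RNA-seq was analysed in 8 cell and 5 ventricle libraries. The deposited tables hold FPKM of 94696 transcripts per library, made with TopHat2 2.0.5 and Cufflinks 2.1.1 on mm9, per the submitters' processing notes. Which annotation they used is not stated in these sources. They also hold the authors' confidence bounds of FPKM and a coverage signal, used as a guide to depth: the median half-width of the 95% bounds was 7.15% to 8.44% of FPKM. Cufflinks shares fragments among isoforms by an estimate, so similar isoforms and near copies are uncertain.

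Identifiers were matched to GENCODE M21 for names only (82379 transcripts, 87.0%). Gene FPKM was summed over transcripts of at least 200 nt. Genes with a transcript of status HIDATA or FAIL were left out (90 in cells, 64 in ventricles, 0 members). Transcripts of status LOWDATA were dropped, which touched Acacb and Crat. Libraries were scaled by median ratios within each set. Those reaching a mean of 1 FPKM (12076 in cells, 11621 in ventricles) entered two-sided tests in limma 3.58.1 (R 4.3.3) after log2(FPKM + 1), with Benjamini-Hochberg adjustment at 0.05. Fold changes on this scale understate low genes. The cell fit had 4 classes of 2 libraries (4 residual degrees of freedom), where the later classes pool 2 ages. The ventricle fit was a slope on stage order (3 residual degrees of freedom). The procedure was tested on simulated data. Named genes were all members, with every library's value for the Cpt1 genes, the peroxisomal genes, the most abundant and the most changed member of each role and members not called in cardiomyocytes, and of the other lists the most changed gene in each cell type. Alternatives were other pseudocounts, filters, scales and transcript sets, limma without a trend, each library left out, and a contrast of ventricle stages. The members and lists were chosen with earlier results of these data known. A few other genes (Hadha in each library, Acaa2, Etfb and Etfa in fibroblasts and Ppara) were given values after these were seen. The values of 1 gene that the naming rule selects are not reported here.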

Additional observations from a re-analysis of the deposited data

Results flagged for a closer look

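The change from neonatal to later cells differed between cardiomyocytes and fibroblasts for 30 of the 31 members, by the interaction term of the limma fit, with 32.2% of all genes passing in the same direction. Acad10 and Ehhadh passed the filter on low values only through the later cardiomyocytes, and without them it was 28 of 29. The differences are given on the log2(FPKM + 1) scale, cardiomyocytes minus fibroblasts. For the carnitine shuttle they were 4.17 for Cpt1b, 3.18 for Cpt2, 2.00 for Slc25a20 and 2.87 for Crat, and for the malonyl-CoA genes 2.85 for Acacb and 2.62 for Mlycd. For the acyl-CoA dehydrogenases they were 2.21 for Acadvl, 2.55 for Acadl, 4.04 for Acadm, 3.56 for Acads, 0.96 for Acad9, 1.68 for Acad10 and 4.21 for Acad11. For the enzymes that complete the cycle they were 2.54 for Hadha, 3.30 for Hadhb, 2.92 for Hadh, 4.36 for Echs1 and 3.46 for Acaa2. For the auxiliary enzymes they were 4.85 for Ech1, 2.51 for Eci1, 2.51 for Eci2 and 3.43 for Decr1. For electron transfer they were 2.12 for Etfa, 3.92 for Etfb and 2.66 for Etfdh, and for the thioesterases 1.29 for Acot2 and 3.69 for Acot13. For the peroxisomal enzymes they were 1.93 for Acaa1a, 1.88 for Ehhadh and 1.70 for Hsd17b4. The adjusted p-values of these limma interactions were at most 0.0193, that of Acot2.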

How the results depend on the processing

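No paired analysis was possible because the labels give the groups no shared replicate numbers. Depth is known only through coverage, and low genes such as Ehhadh and Acad10 are the least precise. With 1 library left out, 28 to 29 members rose in cardiomyocytes and 15 to 20 fell in fibroblasts. In the same runs 29 to 30 were higher in cardiomyocytes and 29 to 30 had a more positive change there. These counts stayed within 1.5 times of the main counts in every alternative run. With mitochondrially encoded genes removed, 1 member (Cpt1a) was called lower in cardiomyocytes. Along ventricle stages the count that rose was 21, but 10 with no filter, 10 on FPKM as deposited, 13 with mitochondrially encoded genes removed, 7 for PN28 and PN90 against E17 and PN1, and 5 to 21 with 1 library left out, where the count that fell was 0 to 1. The log2 ratio of Cpt1a to Cpt1b differed by -5.63 to -4.74 with 1 library left out. Signs turned only for changes that had not been called. In cardiomyocytes, Acot2 was -0.11 on FPKM as deposited and -0.21 with mitochondrially encoded genes removed. In fibroblasts, under the same pair of settings, Cpt1a was -0.20 and -0.20, Acad9 -0.16 and -0.17, Etfa -0.23 and -0.23, and Ehhadh -0.019 and -0.019. With 1 library left out, the range was -0.29 to 0.20 for Cpt1a and -0.12 to 0.67 for Acot2 in cardiomyocytes. In fibroblasts it was -0.0053 to 0.29 for Cpt1a, -0.48 to 0.12 for Acadvl, -0.10 to 0.14 for Acad9, -0.062 to 0.019 for Acad10, -0.15 to 0.029 for Acaa1a and -0.18 to 0.075 for Hsd17b4. For Cpt1a it was -0.42 to 0.067 in the interaction and -0.19 to 0.055 between cell types. For ventricle slopes it was -0.053 to 0.012 for Acad9, -0.013 to 0.37 for Eci2, -0.017 to 0.47 for Acaa2 and -0.23 to 0.34 for Acot2. The cause of these shifts was not tested.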
